A study of Mus musculus with 10 samples.

Results

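The spots described here are the Cyp2e1-rich regions of a single mouse liver tumour, NEJ146, which was read as 4 sections on 10x Visium slides. Each spot on such a slide captures polyadenylated RNA from a small patch of tissue that can hold several cells or parts of cells. The study sorted areas of its spatial sections by histology into neoplastic tissue, non-neoplastic hepatocytes with stroma, and sites of blood formation, among other classes. Those classes were not used here, so either side may hold non-neoplastic liver, and its share was not measured. Spots were kept when they held at least 8000 unique molecular identifiers (UMIs, each standing for 1 captured RNA molecule), and within each section they were ranked by Cyp2e1 UMIs per 10000. The highest of 5 equal parts of that order is called the Cyp2e1-rich side and the lowest is called the Cyp2e1-poor side, with ties given to the spot of higher total first. The rich side held 890, 897, 975 and 834 spots in sections 1 to 4, or 3596 in all, out of 17988 spots that passed the minimum in this tumour and 49916 spots in the 10 sections of the series. The poor side held the same number of spots in each section. Cyp2e1 chose the spots, so its values are given only as a description, and it was left out of every test.

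NEJ146 came from an ABC-Myc mouse, which carries Alb-Cre and CAG-Myc on a C57BL/6J background. In these mice a Cre recombinase driven by the albumin enhancer and promoter, active in hepatocytes and their precursors, removes a STOP cassette so that human c-MYC is made from the CAG promoter. Both sides come from the same sections and share this genotype, and the labels give no age, sex or treatment. No row of the count tables belongs to the human transgene. Beside the 4 sections of NEJ146 the series holds 1 section each of 6 other tissues, NEJ634, NEJ638, NEJ654, NEJ677, NEJ687 and NEJ723. The 4 sections come from 1 tumour, so every p-value below measures only the spread between sections. Their spacing in the tumour is not given in the sources used here. The file totals were 86513213, 98307747, 117556249 and 86518737 UMIs for sections 1 to 4.

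The liver lobule runs from the portal triad, where blood enters, to the central vein, where it leaves, and hepatocytes along that axis express different enzymes. Wnt ligands and R-spondin from the central vein endothelium drive beta-catenin activity in the hepatocytes around it, which carry Cyp2e1, glutamine synthetase and drug-metabolising enzymes, while periportal hepatocytes carry genes of urea synthesis, gluconeogenesis and histidine and serine breakdown. Fetal hepatoblasts and hepatoblastoma cells instead express Afp, H19, Igf2 and Dlk1, and fetal liver also hosts blood formation.

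The 4 promoters below, each running from 250 bases before to 50 bases after the annotated start, are shown because they belong to the gene that chose the spots (Cyp2e1), the gene with the largest increase by the naming rule (Cyp2a5), a direct Wnt target almost wholly confined in these counts to the rich side (Sp5) and the fetal albumin-family gene that was lower there (Afp). They were taken from RefSeq on GRCm38.p6, and capitals mark matches, on either strand, to the TCF/LEF motif CTTTGAT or to the HNF1 half-site GTTAAT.
Cyp2e1, chr7:140763569-140763868, + strand: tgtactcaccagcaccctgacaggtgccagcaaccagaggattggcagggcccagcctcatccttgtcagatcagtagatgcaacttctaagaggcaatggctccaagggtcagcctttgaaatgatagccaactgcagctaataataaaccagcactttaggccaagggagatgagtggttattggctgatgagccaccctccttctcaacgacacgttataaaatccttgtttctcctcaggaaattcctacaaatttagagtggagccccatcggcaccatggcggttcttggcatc
Cyp2a5, chr7:26835089-26835388, + strand: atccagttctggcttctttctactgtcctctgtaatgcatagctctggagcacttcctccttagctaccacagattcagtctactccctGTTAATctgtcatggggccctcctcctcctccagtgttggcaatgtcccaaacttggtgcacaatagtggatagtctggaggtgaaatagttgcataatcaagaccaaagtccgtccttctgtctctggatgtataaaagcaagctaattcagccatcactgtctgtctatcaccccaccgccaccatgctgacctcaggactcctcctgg
Sp5, chr2:70474673-70474972, + strand: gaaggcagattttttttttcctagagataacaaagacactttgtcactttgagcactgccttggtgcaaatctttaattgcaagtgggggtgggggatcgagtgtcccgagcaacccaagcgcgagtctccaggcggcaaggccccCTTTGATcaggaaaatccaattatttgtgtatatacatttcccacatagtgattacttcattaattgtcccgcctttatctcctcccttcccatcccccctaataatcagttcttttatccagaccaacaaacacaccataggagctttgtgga
Afp, chr5:90490464-90490763, + strand: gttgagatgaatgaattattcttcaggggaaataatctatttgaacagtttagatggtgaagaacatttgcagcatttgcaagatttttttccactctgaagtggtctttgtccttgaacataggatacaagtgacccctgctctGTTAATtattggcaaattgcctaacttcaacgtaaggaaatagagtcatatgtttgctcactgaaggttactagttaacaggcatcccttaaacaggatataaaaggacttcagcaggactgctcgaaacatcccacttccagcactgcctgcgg

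The Cyp2e1 window held no match to either motif, Sp5 held 1 TCF/LEF match, and Cyp2a5 and Afp each held 1 HNF1 half-site. CTTTGAT or its reverse complement ATCAAAG occurred in 3.72% of 27025 promoters of this length and in 3 of the 13 pericentral genes that had a promoter in the table (Slc1a2, Lect2 and Cyp2c29). GTTAAT or ATTAAC occurred in 7.20% of all promoters and in 2 of the same 13 genes. These counts are a description of letters in a window and say nothing about binding.

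The rich side formed connected patches. Cyp2e1 reached 809, 809, 771 and 656 UMIs per 1000000 (counts per 1000000, CPM) on the rich side of sections 1 to 4, and no poor-side spot held any Cyp2e1 UMI. The last spot inside the rich side had 3.14, 3.77, 3.19 and 2.22 Cyp2e1 UMIs per 10000, and the first spot outside it had 3.14, 3.76, 3.19 and 2.21. Spots without a single Cyp2e1 UMI made up 36.2%, 25.2%, 27.7% and 43.0% of the spots, more than the poor side could take, so the poor side was filled by totals: its deepest spot had 14779, 23836, 24310 and 15857 UMIs and the next one left out had 14804, 23844, 24311 and 15860. Of the spots adjacent to a rich spot, 66.5%, 60.5%, 63.0% and 63.4% were themselves rich, and the largest unbroken rich patch held 633, 690, 608 and 680 spots. In all the rich side fell into 68, 92, 84 and 83 patches, and the largest poor patch held 352, 146, 202 and 549 spots. With spots ranked within 10 bins of equal numbers by total, the largest rich patch held 218, 286, 531 and 531 spots, or 24.5%, 32.1%, 54.7% and 64.0% of the rich side in place of 71.1%, 76.9%, 62.4% and 81.5%.

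**Figure D1:**
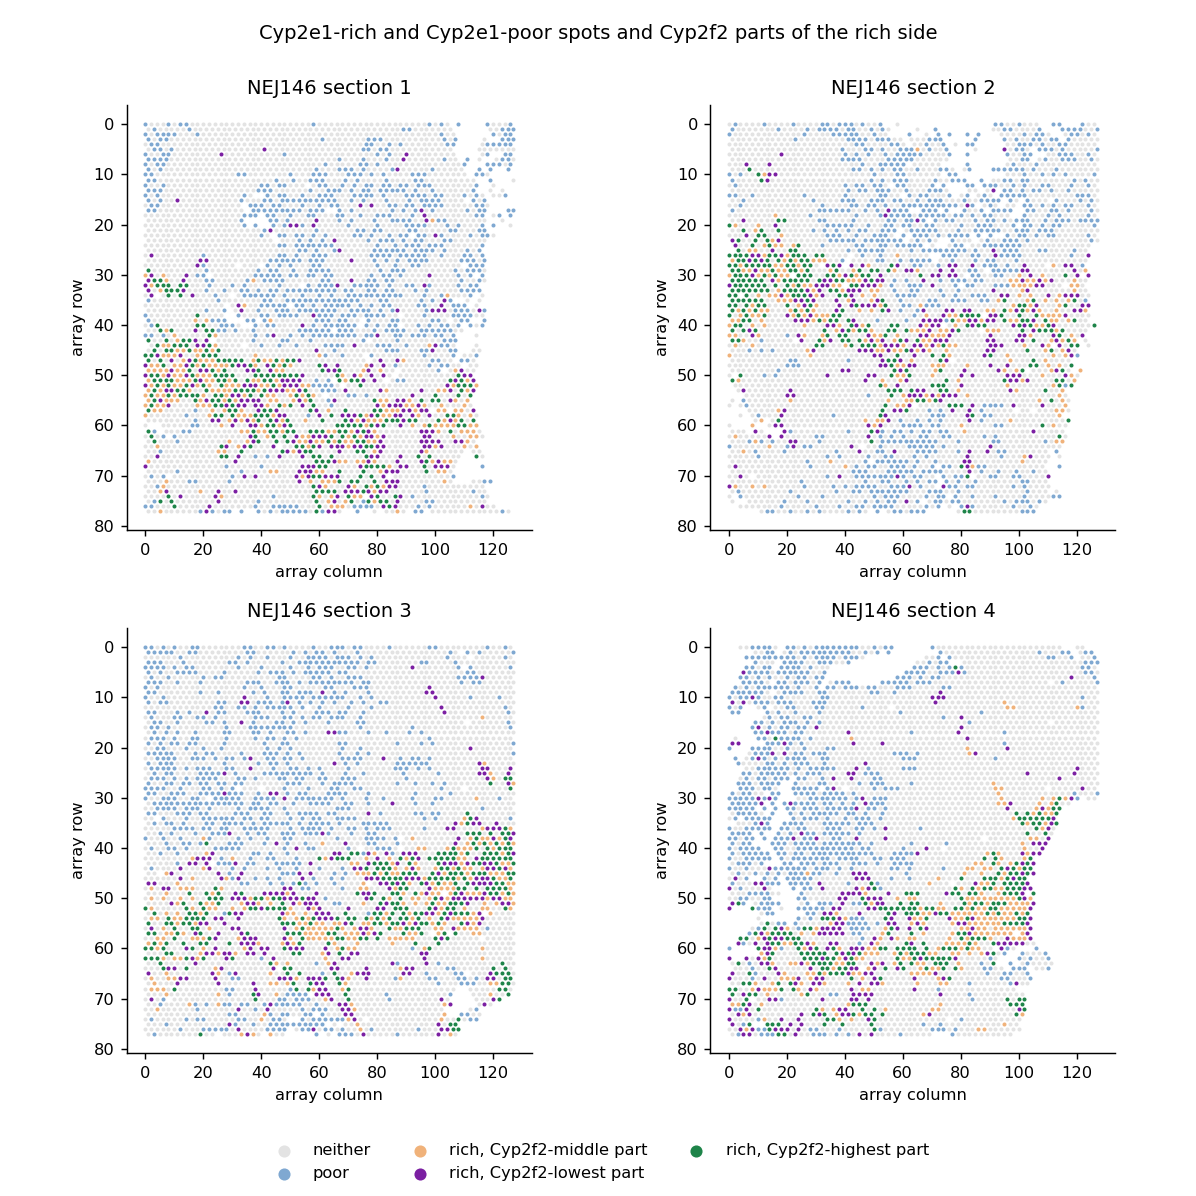
Positions of spots in the 4 NEJ146 sections, with array column and array row (spot counts along the slide) on the axes and 1 point a spot; colours mark the Cyp2e1-poor side and the rich side, the latter cut into 3 parts by Cyp2f2. As ranked over the whole section, rich spots fall into many patches in every section, with a largest patch of 608 to 690 spots. Cyp2f2-high and Cyp2f2-low rich spots are intermixed. More Cyp2f2-high spots lie beside Cyp2f2-high spots (43.3% to 49.9% of rich neighbours) than beside Cyp2f2-low ones (24.5% to 26.2%).

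The sides also differed in depth. Median totals were 24884, 25334, 26671 and 21639.5 UMIs a spot on the rich side and 12043, 13434, 16799 and 12049 on the poor side. The share of mitochondrially encoded UMIs averaged 6.76%, 6.67%, 6.74% and 8.12% over rich spots and 6.15%, 5.47%, 6.57% and 6.94% over poor spots. Positions saying which NEJ146 spots lie over tissue were not used here; in the 6 other sections, 34.5% of the 21745 spots at or above 8000 UMIs lay off the tissue, so some NEJ146 spots may hold RNA that spread from nearby tissue. The part of depth in the differences between the sides was therefore checked by ranking spots within 10 depth bins and by thinning every spot to 8000 UMIs, and either is named where it moves a list's count by over 1.5 times. Ranking within the bins kept 66.5% to 87.4% of the rich spots of a section and 39.4% to 63.5% of the poor spots. Immediate early and heat shock genes, which respond to handling and stress, also moved with the rich side: 6 of 12 tested passed higher (3 with depth bins) and none lower, with a median log2 fold of 0.58 and a summed level of 200.5 to 227 CPM against 183 to 216, and their part in the results below was not tested.

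The second marker of the regions moved with the first. Cyp3a11, a steroid and drug hydroxylase, stood at 5895, 5615, 5177 and 4409 CPM on the rich side and at 487, 575, 481 and 379 CPM on the poor side. The sides did not overlap. Between 66.6% and 73.6% of the rich spots of a section were also in the top part of 5 by Cyp3a11. The poor sides matched less, with between 31.7% and 39.4% of the poor spots also in the lowest part by Cyp3a11. In edgeR's quasi-likelihood test on counts summed by section and side, the log2 fold of rich over poor was 3.55 ± 0.04 (SE, n = 4 sections a side, Benjamini-Hochberg adjusted p = 3.4e-39), which is 11.7-fold. Because spots hold mixtures, a gene that is lower may stand for fewer cells of a type or for less RNA in each, and the counts cannot tell these apart.

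Of 13123 genes tested, 4370 (33.3%) were higher and 4529 (34.5%) lower at an adjusted p below 0.05. With a fold of at least 1.5 also required, which is the rule for every count of members below, 2316 genes (17.6%) were higher and 1197 (9.12%) lower, and the median log2 fold of all genes tested was -0.01. The 12 largest increases among genes above 20 CPM included Cyp2a5, Cyp2c50, Serpina3k, Cyp2c54, Cyp4a10, Cyp1a2, Gsta1, Mettl7b, Akr1c6, Cyp2c29 and Akr1c20, and those named are mostly oxidising, reducing and conjugating enzymes of hepatocytes. The 12 largest decreases were Dct, Slc36a2, Sfmbt2, Slc4a1, Acss1, Serpina1e, Ngp, Bex2, Exoc3l4, Rbp2, Cd24a and Shbg. Cyp2c50 with Cyp2c54, Cyp2a5 with Cyp2a4, Gsta1 with Gsta2, and Serpina1e with its neighbours are near-identical copies, so their UMIs may be shared out unevenly between copies.

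Pericentral genes rose almost as a block. Of 22 tested members, 21 passed higher and none lower, with a median log2 fold of 3.22. Oat, the ornithine aminotransferase of pericentral cells, stood at 228, 243, 222 and 237 CPM on the rich side and at 32.6, 33.0, 31.1 and 33.4 CPM on the poor side (7.60-fold, log2 2.93 ± 0.04, adjusted p = 4e-43 by edgeR). Slc1a2, a glutamate transporter of the innermost pericentral layer, had 17.6, 18.3, 18.4 and 13.9 CPM against 1.23, 1.02, 0.369 and 0.499 CPM, a log2 difference of 4.6 ± 0.15. Both genes left a wide gap between the sides in every section.

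Glul, glutamine synthetase, differed by less. It stood at 164, 163, 163 and 151 CPM on the rich side and at 70.0, 83.7, 69.2 and 54.6 CPM on the poor side, a log2 fold of 1.29 ± 0.05 (adjusted p = 4.4e-13 by edgeR). The sides still did not overlap. Cyp1a2, which oxidises caffeine and aromatic amines, was 18.7-fold higher, with 168, 168, 162 and 129.8 CPM against 9.34, 11.2, 8.92 and 5.99. Csad, of taurine synthesis and named after its values were seen, was the member that did not pass, at a log2 fold of 0.04 (adjusted p = 0.27 by edgeR).

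Drug metabolism genes rose over a wider set than the pericentral list. Several lists below share members with it or with each other, such as Cyp2c29, Cyp3a11 and Ugt1a1. In the Cyp2 family, without Cyp2e1, 28 of 30 tested members passed higher and none lower, with a median log2 fold of 3.29. All 25 tested conjugating enzymes (glutathione transferases, glucuronosyltransferases and sulfotransferases) passed higher, with a median of 2.32, as did 10 of 13 targets of the xenobiotic receptors CAR and PXR, with a median of 1.92. Cyp2a5, a coumarin hydroxylase, stood at 727, 689.6, 721 and 565 CPM against 27.8, 31.2, 25.7 and 15.1 CPM, which is 28.8-fold. Gstm1, an abundant glutathione transferase named after its values were seen, stood at 2924, 2641, 2813 and 2498 CPM against 428, 411, 408 and 361. Of 14 targets of the oxidant sensor Nrf2, 8 passed higher and 1 lower, led by Gpx2, a glutathione peroxidase, with 850 UMIs on the rich side and 16 on the poor side.

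Wnt targets were higher with 1 exception. Of 11 tested members, 10 passed higher and none passed lower at 1.5-fold, with a median log2 fold of 3.12. Axin2, Lgr5, Tbx3, Glul and Rhbg are also on the pericentral list, so they are counted in both. Sp5, a transcription factor whose promoter is printed above, had 134 UMIs on the rich side and 1 on the poor side. Its CPM ratio was 73.3, with a 95% counting interval of 12.9 to 2917. That interval pools the sections and leaves out the spread between them. Sp5 met the UMI minimum for testing through the rich side, which held more UMIs than the poor side in every section. Axin2, Slc1a2 and Gpx2 also had too few poor-side UMIs to meet it without the rich side. Counts of rare members passing higher are therefore partly set by this minimum. Axin2, a feedback inhibitor of the pathway that was named after its values were seen, had 4.58, 4.44, 4.02 and 4.59 CPM on the rich side and 0.189, 0.315, 0.738 and 0.599 CPM on the poor side. Znrf3, which removes Wnt receptors from the cell surface and was also named after its values were seen, was at a log2 fold of -0.21.

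The ligands that central vein endothelium makes in normal liver moved the same way, at low counts. All 6 tested genes of the central vein list passed higher, with a median log2 fold of 1.82. Rspo3 met the UMI minimum for testing through the rich side, so this count is partly set by that minimum. Rspo3, the R-spondin of the central vein, had 7.39, 6.79, 6.96 and 6.36 CPM on the rich side and 0.566, 0.551, 1.17 and 0.299 CPM on the poor side (10.3-fold, log2 3.37 ± 0.19). Wnt9b and Wnt2, the ligands themselves, were 8.64-fold and 4.62-fold higher. Vwf, made by the endothelium of larger vessels, had 38.0, 33.9, 35.9 and 34.3 CPM against 13.1, 14.1, 12.5 and 7.78.

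Periportal genes did not move as 1 block. Of 20 tested members, 6 passed higher and 5 lower, with a median log2 fold of 0.16. Cyp2f2, the periportal cytochrome that falls toward the central vein in normal liver, stood at 172, 157, 166 and 106 CPM on the rich side and at 18.4, 20.9, 15.7 and 9.18 CPM on the poor side (9.99-fold, log2 3.32 ± 0.06, adjusted p = 1.7e-24 by edgeR). Pigr, the receptor that carries IgA into bile, was 10.5-fold higher, with 126, 114, 103 and 95.9 CPM against 12.1, 12.4, 11.7 and 7.78. Each of these genes of opposite lobular position was thus higher on the side picked by Cyp2e1.

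Single periportal genes differed in direction. Pck1, which commits carbon to glucose, had 648, 661, 619 and 671 CPM on the rich side and 133, 168, 139 and 152 on the poor side, which is 4.67-fold. Hal, the first enzyme of histidine breakdown, overlapped between the sides, with 94.5, 90.1, 91.2 and 79.5 CPM against 93.9, 88.2, 82.7 and 85.3 (log2 0.11 ± 0.04). Sds, serine dehydratase, and Gls2, the liver glutaminase, fell, to 149, 146, 144 and 135 CPM against 320.1, 291, 294 and 311 for Sds; both were named after their values were seen, and Gls2 was at a log2 fold of -0.77. Urea cycle genes stood between, with 2 of 7 passing higher, 1 with depth bins or thinning, Arg1 2.22-fold higher, and Cps1 at 2270.4, 2189.7, 2192 and 2307 CPM against 2497, 2200.4, 2298 and 2389 (log2 0.02 ± 0.03, adjusted p = 0.62 by edgeR, with a sign that turned under 4 other settings).

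**Figure D2:**
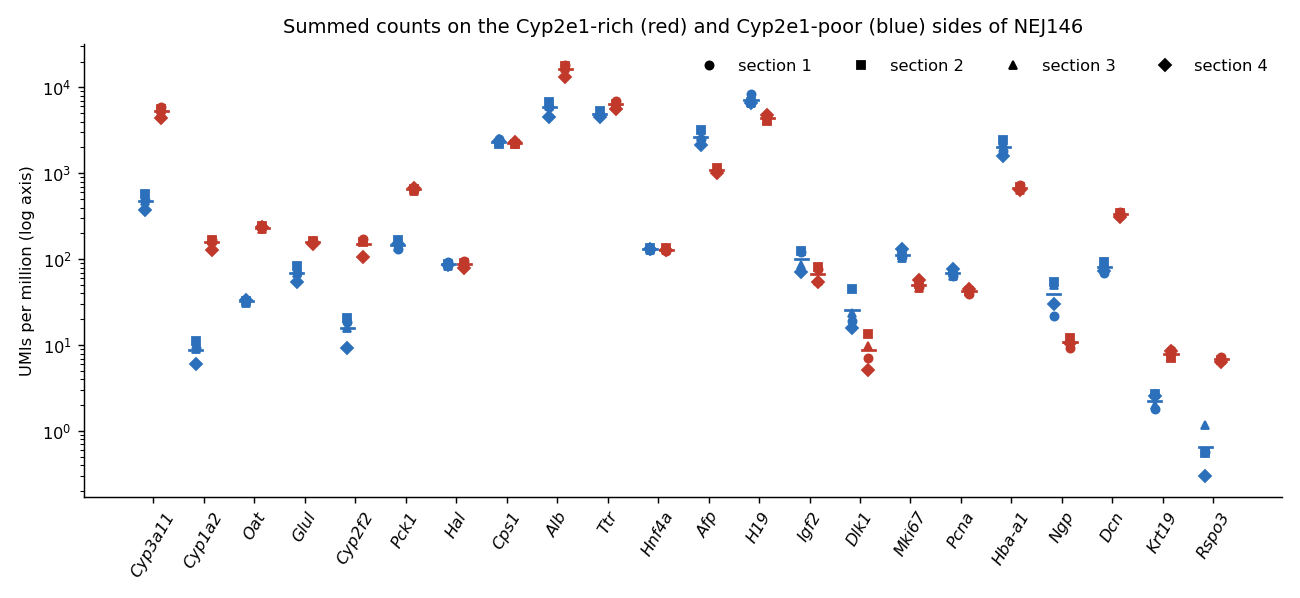
CPM, on a log axis, of 22 genes on the Cyp2e1-rich and Cyp2e1-poor sides, with 1 symbol for each of the 4 NEJ146 sections and a bar at the mean of the 4. Cyp3a11, Oat, Cyp2f2 and Pck1 separate the sides with the rich side above, Hal, Cps1 and Hnf4a overlap, and Afp, Mki67 and Hba-a1 separate them with the poor side above.

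General hepatocyte genes changed less. Of 32 plasma protein genes 6 passed higher and 1 lower (none lower with depth bins), with a median log2 fold of 0.06. Alb, albumin, stood at 18435, 17596, 16810.1 and 13167 CPM against 5872, 6812, 6142 and 4535, which is 3.0-fold, and Ttr, the thyroxine carrier, was 1.39-fold higher. Hnf4a, the transcription factor that holds hepatocyte identity, had 123, 135, 127 and 129 CPM on the rich side and 128, 136, 128 and 132 on the poor side, a difference that did not pass (log2 0.06 ± 0.04 with TMM factors, adjusted p = 0.16 by edgeR). Its sign depends on the scaling, since the CPM values, which use library totals, were slightly lower on the rich side and the fit with library totals gave -0.0247. Of 17 hepatocyte transcription factors 5 passed higher, among them Foxa1 at 4.27-fold. Tbx3 and Ahr, which are also on the pericentral list, are among the 5 and are counted in both.

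Acute phase genes, which hepatocytes make in inflammation, were mostly higher, with 11 of 14 passing and a median log2 fold of 1.36. Saa1, serum amyloid A, had 42.3, 32.6, 37.2 and 30.4 CPM on the rich side and 2.64, 2.99, 3.57 and 2.69 on the poor side. Bile acid genes passed higher in 10 of 15, with Cyp8b1, the sterol hydroxylase that sets cholic acid output, at 9.23-fold. Of 21 genes of fatty acid oxidation 12 passed higher, led by Cyp4a10, an omega-hydroxylase induced by PPAR-alpha, at 19.4-fold. Fatty acid synthesis was uneven, with 5 of 11 higher and a median of 0.01: Scd1, the stearoyl desaturase, stood at 580.5, 522, 503 and 462 CPM against 54.2, 57.9, 54.1 and 38.8, while Fasn, named after its values were seen, was at a log2 fold of 0.01. In cholesterol synthesis 9 of 18 passed higher and none lower, with Msmo1, a sterol oxidase, at 4.63-fold.

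Several oncofetal genes were lower on the rich side while still being counted there. Of 17 tested members 8 passed lower and 4 higher, with a median log2 fold of -0.58. With depth bins 8 passed lower and 2 higher, and among the 50% of spots with the least globin in each section, a setting added after the data were seen, 10 of 16 passed lower and 1 higher. Afp had 1055, 1141, 1125 and 1018 CPM on the rich side and 2478, 3209, 2654 and 2155 on the poor side, a fall of 2.26-fold (log2 -1.18 ± 0.05, adjusted p = 8.3e-13 by edgeR). H19, an imprinted fetal RNA, had 4601, 4097, 4218 and 4801 CPM against 8292, 6761, 6540.4 and 6618, a log2 fold of -0.58 ± 0.05. In both genes every rich value lay below every poor value.

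The other fetal genes ran in both directions. Sall4, a stem cell transcription factor, was 4.31-fold lower, and Dlk1, a Notch-like surface protein of hepatoblasts, was 2.70-fold lower, with 7.16, 13.4, 9.79 and 5.18 CPM against 19, 45.2, 23.4 and 16. Igf2, the fetal growth factor, had 77.7, 80.8, 56.2 and 55.1 CPM against 123, 125, 84.9 and 70.2, so that the rich values of sections 1 and 2 overlapped the poor values of section 4, and its adjusted p passed (2.5e-13 by edgeR) with a fold under 1.5. Gpc3, a glypican of liver tumours, and Epcam, a progenitor and bile duct adhesion protein, were 2.15-fold and 2.35-fold higher, at no more than 8 CPM. Neither passed with depth bins (log2 0.61 and 0.60) or among the spots with the least globin (log2 0.09 and -0.21). Among the 12 largest decreases, Dct, known from melanin synthesis, had 16.6, 13.6, 15.0 and 16.6 CPM against 151, 100.2, 119 and 115.

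Cell division genes were lower. All 20 tested mitosis genes had a lower level at an adjusted p below 0.05, 11 of them past 1.5-fold, with a median log2 fold of -0.60, and 16 of 18 DNA replication genes passed lower. Mki67, made in dividing cells, had 47.4, 51.2, 46.8 and 57.0 CPM on the rich side and 107, 112, 104 and 131 on the poor side, a fall of 2.11-fold (adjusted p = 7.7e-27 by edgeR). With spots thinned to 8000 UMIs, 5 mitosis and 9 replication genes still passed lower, and with the Cyp2e1 order cut into 2 equal parts in place of 5, 0 and 1 did. With 2 equal parts the medians of the 2 lists were -0.37 and -0.41. Among the spots with the least globin, 12 mitosis and 18 replication genes passed lower. Nucleolar ribosome biogenesis genes moved less, with 1 of 20 past 1.5-fold and a median of -0.34. Psat1 and Phgdh, of serine synthesis, were 2.83-fold and 2.31-fold lower. With Asns, asparagine synthetase, named after its values were seen, they were the 3 of 12 genes of the stress response list that passed lower, and 3 others passed higher (1 with thinning, where 10 were tested).

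Markers of other cells differed too, and their part in the differences above was not tested. All 16 tested erythroid genes passed lower, with a median log2 fold of -1.54, and their summed level ran from 3564 to 4212 CPM on the rich side and from 9625 to 13888 CPM on the poor side. Hba-a1, an alpha-globin gene with a near-identical copy, had 737, 693, 643 and 643 CPM against 1799, 2465, 2271 and 1584. With depth bins 13 of the 16 passed lower. Of 12 neutrophil genes 11 passed lower, with a median log2 fold of -1.42, but with depth bins 6 passed lower and 1 higher and the median was -0.80. All 5 tested megakaryocyte and mast cell genes passed lower, with or without depth bins. Among the spots with the least globin, 7 of 15 erythroid genes and 8 of 9 neutrophil genes passed lower and 1 of each list higher, while 21 of 22 pericentral genes passed higher as before. The globin genes that chose these spots belong to the erythroid list, so its count there is partly set by the choice.

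Stromal and bile duct genes ran the other way. Of 17 stromal genes 15 passed higher, with a median log2 fold of 0.95 and a summed level of 1086 to 1228 CPM against 448 to 596. Among the spots with the least globin 9 of the 17 passed, with a median of 0.94. Dcn, decorin, had 357, 346, 331 and 309 CPM on the rich side and 68.7, 92.6, 93.7 and 72.4 on the poor side. Of 9 bile duct genes 7 passed higher, with a summed level of 178 to 209 CPM against 56.1 to 91.2, and among them Krt19, a duct keratin, had 8.70, 7.18, 7.37 and 8.49 CPM against 1.79, 2.68, 2.03 and 2.59. With depth bins 4 of the 9 bile duct genes passed, with a median log2 fold of 0.60 in place of 1.23, and among the spots with the least globin 2 did, without Krt19 (log2 0.81, adjusted p = 0.10 by edgeR). Of 15 endothelial genes 7 passed higher, of 13 macrophage genes 3 passed lower (1 with depth bins), and of 10 lymphocyte genes 3 passed lower.

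Levels of several genes moved in steps along the Cyp2e1 order. These bands share spots with the sides and carry no test. The top 1% of spots had 1987, 1902, 2010.1 and 1973 CPM of Cyp2e1. There Oat rose to 606, 712, 608 and 775 CPM and Afp fell to 476, 549.7, 485 and 302 CPM, with H19 at 2303, 2151, 2345 and 2463. Afp and H19 UMIs were thus still counted in the richest spots, where RNA spread from nearby spots was not measured. Cyp2f2 did not follow Oat: it averaged 159 ± 30 CPM (SD, n = 4 sections) in the band from 10 to 20%, 162 ± 41 from 5 to 10%, 132 ± 26 from 1 to 5% and 109 ± 39 in the top 1%, and these ranges overlap. Spots without Cyp2e1 reach into the second lowest of the 5 parts, and in section 4, where they were 43.0% of spots, into the middle part. They were divided there by total, so no step is read between the 2 lowest parts. In section 4 none is read from these to the middle part either.

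**Figure D3:**
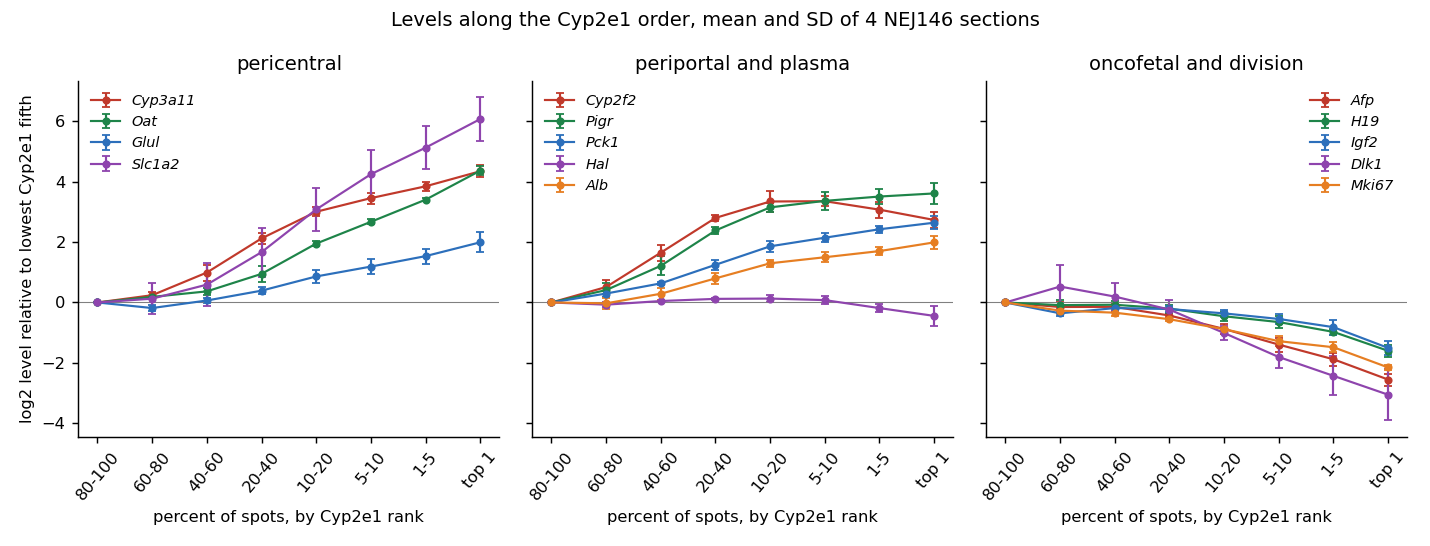
Log2 level relative to the lowest part of 5, on a log2(CPM + 0.1) scale, along the Cyp2e1 order from the lowest 20% of spots to the top 1%; points are means and bars SDs over the 4 NEJ146 sections. Oat and Slc1a2 climb to the top 1%, and Afp and Mki67 fall. Cyp2f2 does not keep climbing, and its mean is lower in the top 1% than in the bands just below, with ranges that overlap.

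Since the periportal gene Cyp2f2 was higher on the side picked by Cyp2e1, the rich spots of each section were cut again into 3 equal parts by Cyp2f2 UMIs per 10000, a comparison chosen after the data were seen. Each part held 296, 299, 325 and 278 spots in sections 1 to 4. Cyp2f2, which made the split and is given as a description, stood at 397, 355, 383 and 286 CPM in the highest part and at 12.8, 15.6, 14.8 and 0 CPM in the lowest. In section 4, 41.0% of the rich spots held no Cyp2f2 UMI, more than the lowest part could take, so its lowest part there is the spots of lowest total among them. Cyp2e1 ranges overlapped between them, with 766, 808, 747 and 632 CPM in the highest part against 776, 785, 787 and 558, and median totals were 25695.5, 25011, 28067 and 21308.5 UMIs against 25024, 26071, 27937 and 17605. Among the rich neighbours of Cyp2f2-high spots, 43.3%, 49.9%, 46.1% and 49.5% were Cyp2f2-high, against 25.3%, 24.5%, 24.8% and 26.2% among those of Cyp2f2-low spots. Of 11969 genes tested without Cyp2e1 and Cyp2f2, 683 (5.71%) were higher and 404 (3.38%) lower in the Cyp2f2-high part at an adjusted p below 0.05 and 1.5-fold. Which direction held more genes depended on the scaling, since library totals in place of TMM factors gave 519 higher and 620 lower. With the rich spots ranked by Cyp2f2 within 10 depth bins, where the medians of total in section 4 were 21552 and 21298 UMIs, 625 were higher and 327 lower. The share of mitochondrially encoded UMIs averaged 7.23%, 7.15%, 7.09% and 8.96% in the Cyp2f2-high part and 6.26%, 6.11%, 6.28% and 7.90% in the low part, and 12 of 13 mitochondrially encoded genes were higher at an adjusted p below 0.05, none past 1.5-fold. Of 17 stromal genes 6 passed higher and none lower (4 with depth bins, 3 with library totals), and the part of these signs in the differences below was not tested.

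Within the rich side the periportal list moved one way. Of 19 tested members 13 passed higher in the Cyp2f2-high part and none lower, with a median log2 fold of 0.81 beside -0.01 for all genes. Pigr had 226, 202, 191 and 187 CPM in the high part and 47.0, 48.7, 41.9 and 30.0 in the low part (log2 2.34 ± 0.06, adjusted p = 1.2e-25 by edgeR). Hal, which overlapped between the rich and poor sides, had 164, 144, 147 and 142 CPM against 45.2, 52.2, 47.1 and 48.9, a log2 difference of 1.72 ± 0.05. Pck1 had 1117, 1109, 1081 and 1235 CPM against 259, 326, 265 and 307, and 4 of 7 urea cycle genes passed higher. None of these 3 genes overlapped between the parts.

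The pericentral list divided. Of 22 members 5 passed higher and 8 lower, with a median log2 fold of -0.27. Glul had 100.4, 92.4, 82.2 and 73.3 CPM in the Cyp2f2-high part and 217, 224, 253 and 183 in the Cyp2f2-low part (log2 -1.24 ± 0.06, adjusted p = 1.2e-09 by edgeR). Rhbg, an ammonium transporter, and Slc1a2 fell further, at log2 folds of -1.60 and -1.57. Cyp3a11 went the other way, with 7553, 7056, 6783 and 5985 CPM against 4229, 4417, 3791 and 2870.2, and Cyp2c50 was at 1.41. Over the Cyp2 family 20 of 27 tested members passed higher and none lower, with a median of 0.88.

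Most Wnt targets were lower where Cyp2f2 was high. Members shared with the pericentral list are counted in both. Of 11 Wnt targets 7 passed lower and 1, Nkd1, a pathway inhibitor at a log2 fold of 0.75 that was named after its values were seen, passed higher; the list's median was -0.81. Rspo3 had 4.5, 4.1, 3.46 and 2.33 CPM in the high part and 9.48, 8.92, 9.92 and 9.54 in the low part, and Wnt9b was at -1.18. These were the 2 of 6 central vein genes that passed lower (4 with library totals), none passed higher, and the median of the list was -0.52. Rspo3 did not overlap between the parts, as Glul did not.

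Mitosis genes and Afp were lower in the Cyp2f2-high part. Afp had 687, 782, 650.5 and 606 CPM in the high part and 1463, 1475, 1571 and 1655 in the low part (log2 -1.08 ± 0.11, adjusted p = 0.0064 by edgeR), and 6 of 16 oncofetal genes passed lower and 2 higher. Of 20 mitosis genes 19 passed lower, with a median of -0.70, and of 18 DNA replication genes 7 passed lower (4 with depth bins, 11 with library totals), with a median of -0.54. All 32 plasma protein genes had a higher level at an adjusted p below 0.05, 11 of them past 1.5-fold (8 with depth bins, 7 with library totals). Alb stood at 25441, 23549, 23243 and 19285 CPM against 12136, 12629, 11259 and 8298. All 9 tested bile duct genes passed higher, with a summed level of 263 to 349 CPM against 82.9 to 110.2, and Spp1, osteopontin, was at a log2 fold of 1.87. No erythroid gene passed 1.5-fold in either direction out of 15, with 3 lower at an adjusted p below 0.05, and Hba-a1 was at -0.11 (adjusted p = 0.67 by edgeR).

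**Figure D4:**
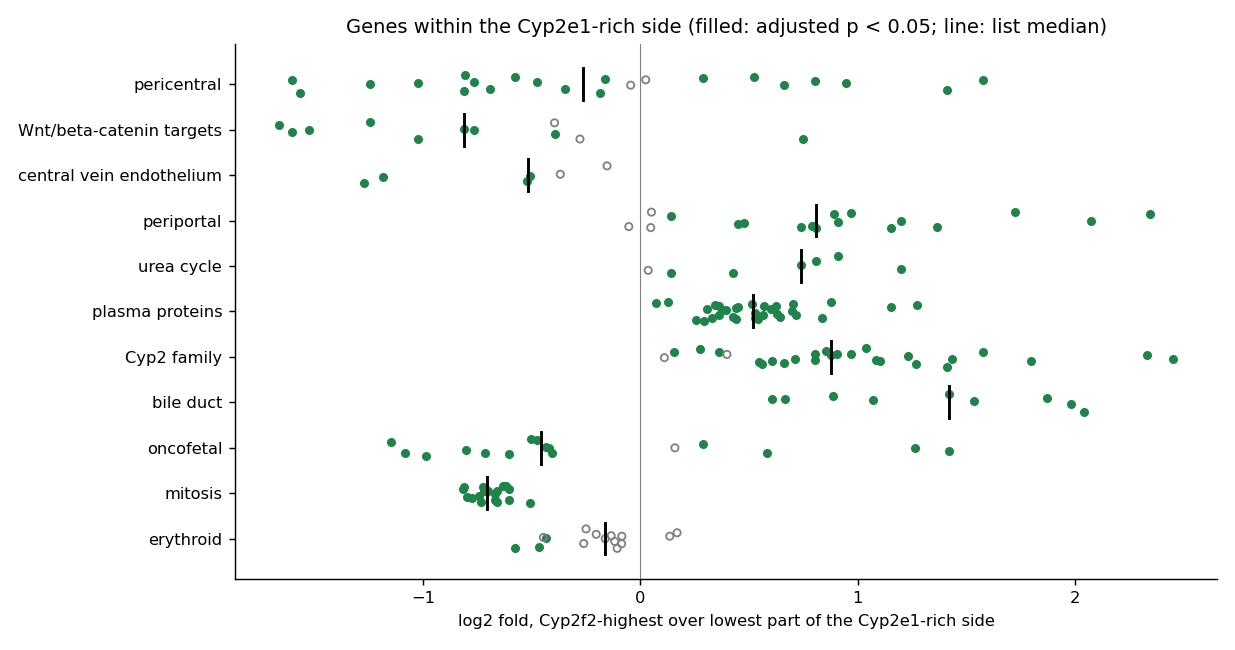
Log2 fold of the Cyp2f2-highest over the Cyp2f2-lowest part of the rich side for the tested genes of 11 lists, 1 point a gene, filled where the adjusted p is below 0.05, with a line at each list's median. Medians of the periportal, plasma, Cyp2 and bile duct lists lie to the right of 0 (0.81, 0.52, 0.88 and 1.42). Those of the mitosis and Wnt lists lie to the left (-0.70 and -0.81). Points of the pericentral, periportal and Wnt lists fall on both sides of 0.

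The same Cyp2e1 split was applied to the other tissues, each of which is 1 section with no replicate, processed with other software by the labels and deposited with tissue positions, so values are set side by side with no test. The labels call every tissue hepatoblastoma and mention normal liver only in a shared protocol. The study's text names NEJ146, NEJ634, NEJ687 and NEJ723 as the tumours of its spatial set and sets them beside healthy livers, which by elimination are NEJ638, NEJ654 and NEJ677, so the values below set a tumour beside tissues that are probably healthy liver. NEJ638, NEJ654 and NEJ677 had Cyp2e1 levels of 2629.9, 3634 and 2671 CPM over their tissue spots and Afp levels of 9.86, 3.71 and 4.98 CPM, far from the 1018 to 1141 CPM of Afp on the NEJ146 rich side. Their Alb levels were 70093, 86351 and 51931 CPM, and their H19 levels were 79.6, 6.14 and 4.69 CPM. NEJ634 and NEJ687 had 70.5 and 46.9 CPM of Cyp2e1, and NEJ723 had 50 Cyp2e1 UMIs in all and is not compared.

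In NEJ638, NEJ654 and NEJ677 periportal genes were lower where Cyp2e1 was high. On the log2(CPM + 1) scale Cyp2f2 was at -2.56, -2.53 and -2.39 and Hal at -2.39, -2.32 and -2.34, and the periportal list had medians of -1.54, -1.90 and -1.70. Pigr was at -2.74, -2.15 and -2.47 and Alb at -0.53, -0.82 and -0.80. Each of Cyp2f2, Pigr and Alb thus ran opposite to its difference in NEJ146. Pericentral genes ran the same way as in NEJ146, with list medians of 1.72, 1.89 and 2.09 and Glul at 2.67, 2.56 and 3.05, and the bile duct list, higher on the rich side of NEJ146, had medians of -1.80, -1.10 and -1.29. Nearly every spot of these 3 tissues held a Cyp2e1 UMI, so their poor side was low in Cyp2e1 (793, 1165 and 646 CPM) where that of NEJ146 had none.

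The same split in the tumours NEJ634 and NEJ687, again 1 section each, gave part of the NEJ146 pattern. Their rich sides had 222 and 182 CPM of Cyp2e1 and their poor sides none, with median totals of 33970 against 18994 UMIs in NEJ634 and 13686.5 against 9542 in NEJ687. Pericentral list medians were 2.04 and 1.32 on the log2(CPM + 1) scale, and Glul was at 1.19 and 0.72. Cyp2f2 was higher on both rich sides, as in NEJ146, with 32.3 against 8.27 CPM in NEJ634 and 23.6 against 12.1 CPM in NEJ687, and the periportal list had medians of 0.77 and 0.02. Other lists ran opposite to NEJ146: erythroid genes had medians of 0.89 and 0.17, where those of NEJ146 were lower on the rich side, and bile duct genes had medians of -1.59 and -0.23, where those of NEJ146 were higher. Stromal genes differed between the pair, at -0.67 and 0.59, and Afp was at -0.57 and 0.03. The lists that were lower on the NEJ146 rich side were lower in NEJ634 and near 0 in NEJ687 for oncofetal genes (-0.90 and -0.02), mitosis (-0.37 and 0.02) and DNA replication (-0.35 and 0.02). The medians over all genes tested were -0.22 and -0.01.

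**Figure D5:**
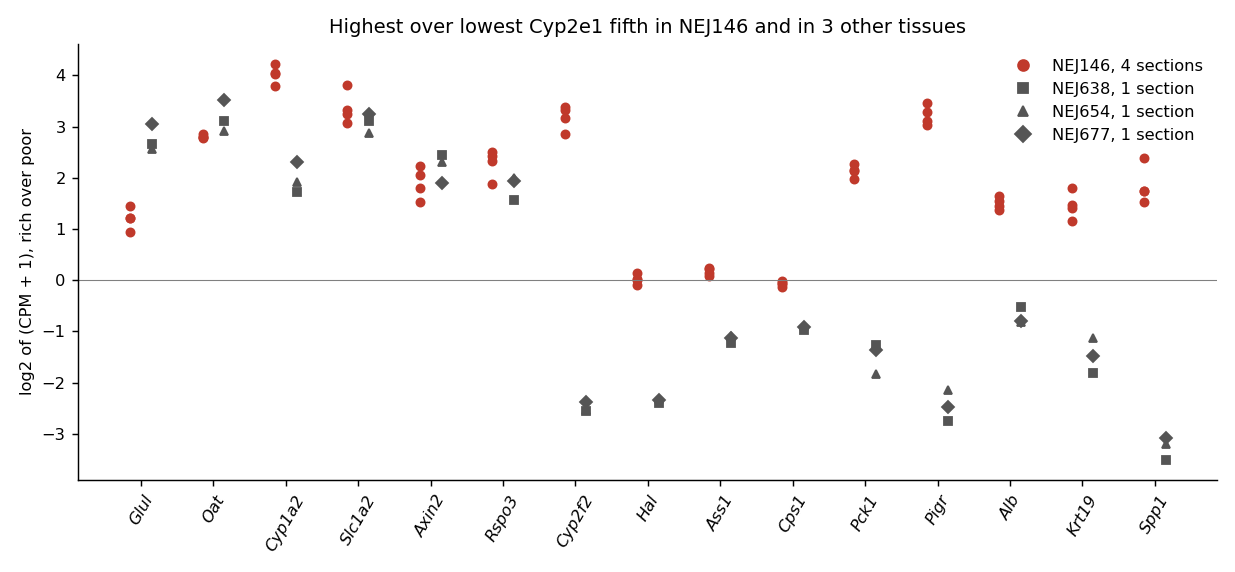
Log2 difference of the highest over the lowest part of 5 by Cyp2e1, on the log2(CPM + 1) scale, for 15 genes in each of the 4 NEJ146 sections and in the single sections of NEJ638, NEJ654 and NEJ677. Glul, Oat, Slc1a2 and Axin2 lie above 0 in all 7 sections, whereas Cyp2f2, Pigr, Pck1, Alb, Krt19 and Spp1 lie above 0 in NEJ146 and below 0 in the others.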

How the data were processed

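Visium libraries from 10 mouse sections were analysed, 4 of them sections of the tumour NEJ146. The deposited values are UMI counts, not normalised and not filtered by the authors; the same 31053 genes are listed for every section. The submitters' processing notes name Cell Ranger 6.0 for NEJ146 and Space Ranger 1.3 for the other 6 sections; the genome build of NEJ146 is not given in the sources used here. Deposited tissue positions were used for the 6 single-section tissues, and array positions of NEJ146 were read by barcode, of which 4989 are shared by all 10 sections because a barcode marks a slide position. No column lacked a sample.

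Counts were summed per section and side in Python 3.11.15 and tested in R 4.3.3 with edgeR 4.0.16 (TMM factors, robust quasi-likelihood test, section as a block since both sides come from the same section, genes of at least 80 UMIs over the 8 sums, Benjamini-Hochberg adjustment). TMM moved log2 folds by 0.07 to 0.10 against library totals. CPM values are counts per 1000000 UMIs of a sum, ± is SE for fitted folds and SD for levels, and depths cover counting error only. DESeq2 1.42.0, other totals, minimums, splits and each section left out were alternatives. The fitting code was also run on simulated counts, which checks the code and not the p-values of these sections. Sections differed beyond sampling noise, so each counted as 1 replicate. Chi-square per degree of freedom was 14.8 to 20.5 for pairs among sections 1 to 3 and 67.6 to 91.6 for pairs with section 4.

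Genes were named by rule: the 12 largest changes each way above 20 CPM, a panel of 25 and the 4 largest of each of 33 lists (499 symbols, 3 of them not in the files); others are said to be named after their values were seen. 1 of the largest increases is not reported here. The members, lists and tests were chosen with earlier results of these data known. Some genes stand on more than 1 list, so the counts of lists are not independent.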

Additional observations from a re-analysis of the deposited data

Results flagged for a closer look

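In 9 of 193 results tested, 1 section stood apart from the other 3; chance flags about 1 in 20. On the log2(CPM + 1) scale these were the folds in section 2 of Bex2 (-2.01), of Epcam (0.50) and of Cyp3a13 (0.74), that in section 3 of Cyp2d40 (2.77), and those in section 1 of Saa1 (3.57) and of the erythroid membrane gene Rhag (-1.53). The list medians were 2.60 for the Cyp2 family in section 3, 1.14 for the Cyp3a family in section 2 and 1.53 for acute phase genes in section 1.

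Other results had 1 sign in all 4 NEJ146 sections and the opposite sign in each of NEJ638, NEJ654 and NEJ677; this difference was not tested, and by the labels the tissues were processed with other software. Genes under 5 CPM in any of the 3 tissues were not considered. For the following, the mean of the 4 NEJ146 sections was above 0 and the 3 tissues were below 0. Among genes of zonation and urea synthesis the mean was 3.18 for Cyp2f2, 3.22 for Pigr, 2.13 for Pck1, 1.06 for Arg1, 0.42 for Asl, 0.30 for Otc and 0.17 for Ass1. Among secreted proteins of hepatocytes it was 4.25 for Serpina3k, 1.5 for Alb, 2.61 for Apoc3, 1.83 for Hp, 1.38 for Hpx, 2.88 for Saa2 and 3.13 for Orm1. It was 3.51 for Cyp2a4, 0.76 for Thrsp, 0.82 for Egr1 and 1.85 for Spp1, and among mitochondrially encoded genes 0.86 for mt-Nd2, 0.55 for mt-Nd4, 0.35 for mt-Nd3 and 0.34 for mt-Nd4l. Of the lists it was 0.0757 for periportal genes, 1.26 for acute phase genes, 0.33 for urea cycle genes, 0.21 for mitochondrially encoded genes and 0.93 for bile duct genes.

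For the following the mean in NEJ146 was below 0 and the 3 tissues were above 0. It was -0.68 for Pcna and -0.93 for Mcm6, of DNA replication, -1.47 for Alas2, the erythroid enzyme of the first step of heme synthesis, -0.65 for Nolc1 and -0.57 for Dkc1, of the nucleolus, and -1.25 for Ndrg1. The list means were -0.76 for DNA replication genes, -0.13 for hypoxia genes and -0.26 for integrated stress response genes.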

How the results depend on the processing

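Over 21 alternatives the count of genes higher on the rich side ran from 1740 (spots thinned to 8000 UMIs) to 2717 (every gene with a UMI) and the count lower ran from 487 to 1545 (library totals), beside 2316 and 1197. The value 487 came from cutting the Cyp2e1 order into 2 equal parts, which leaves no spots between the sides. Of the genes called lower, 67.4% were called again with 10 depth bins, 65.0% with thinning and 30.2% with 2 equal parts. Of those called higher, the shares were 86.3%, 69.8% and 65.6%. Without the replicate block that pairs both sides of a section the counts were 2307 and 1193, and 658 and 380 within the rich side, none of them a change of over 1.5 times. Leaving out each section gave 2152 to 2262 and 1128 to 1143. Within the rich side the counts were 683 higher and 404 lower; DESeq2 gave 257 lower, library totals 519 higher and 620 lower, ranking within 10 depth bins 625 and 327, and 2 equal parts by Cyp2f2 gave 447 higher and 207 lower. There, leaving out each section gave 621 to 692 and 358 to 401. The cause of these shifts was not tested. The share of adjacent spots on the same side averaged 63.4% (rich) and 49.1% (poor), 56.2% and 32.6% when ranked within 10 depth bins, and 62.3% to 64.3% and 46.2% to 50.7% with a section left out. The log2 fold of Cps1 turned sign with library totals (-0.0646), a tissue call by mitochondrial share (-0.00502) and the spots of least globin (-0.00908), and ran from -0.00272 to 0.0476 with a section left out. That of Hnf4a was -0.0247 with library totals, that of Epcam -0.21 among the spots of least globin, and that of Hba-a1 within the rich side 0.0607 with 2 equal parts by Cyp2f2.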

Other observations

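Gpx2, a glutathione peroxidase of the gut and of Wnt-active tissue, had 8.39, 8.66, 10.2 and 10.2 CPM on the rich side of sections 1 to 4, 0.189, 0.315, 0.369 and 0.399 CPM on the poor side, and 0.166, 0.124 and 0.081 CPM over NEJ638, NEJ654 and NEJ677. Gsta1, which shares sequence with Gsta2, had 44.3, 39.0, 44.2 and 35.3 CPM on the rich side and 3.07, 2.85 and 5.49 CPM over the same 3 tissues. For these 2 genes the rich side of NEJ146 stood above the level over all tissue spots of these tissues, whose Cyp2e1 was higher. A chosen part is set there beside whole tissues, with no test.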
